A study of Mus musculus with 10 samples.

Results

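The 4 syndecan genes (Sdc1 to Sdc4) and 6 glypican genes (Gpc1 to Gpc6) were taken by symbol from a table of 49568 genes, and all 10 were present. Messenger RNA had been sequenced from 10 mouse pancreatic cancer cell lines, 1 library per line, and the comparison asks how lines of the 2 labelled genotypes differ. Of these, 5 carried the KPC genotype (A1081, A1620, A1625, A2031, A2032), while 5 carried KPCAf/f (A1693, A1809, A1925, A2441, A3992). KPC usually denotes a mouse model of pancreatic cancer that uses a Cre recombinase active in the pancreas, and the labels do not state its alleles or Cre driver. The added Af/f is read as floxed alleles of Arid1a, which the title of the series names, on the KPC background that both groups share. All lines were grown in serum-containing DMEM, and no treatment is named. The ages of the mice, and whether each line came from its own mouse, are not given, so p-values measure the spread between these lines, which may be technical in part.

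Syndecans and glypicans are the main families of cell-surface proteins that carry heparan sulfate, a long sulfated sugar chain. Syndecans span the membrane and end in a short cytoplasmic tail, whereas glypicans are held on the outer face by a lipid (GPI) anchor. Their chains bind growth factors of the FGF, Wnt and Hedgehog families and matrix proteins, and in epithelia Sdc1 is the typical syndecan while Sdc2 is better known from mesenchymal cells.

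Reads assigned to genes ranged from 15124888 to 20419830 per line, and values are DESeq2-normalized counts, of which 1 read makes about 1. Arid1a itself, counted over the whole gene and so also over exons that are not deleted, lay between 1253 and 1785 in KPCAf/f lines and between 1915 and 3109 in 4 KPC lines, with 820 in A1620. The labelled origin was checked on a duct and progenitor list of 6 genes. Its summed level was 3246 to 5205 in KPC and 1074 to 3757 in KPCAf/f, and A1693 was mixed. It had 2.70 of Pdx1, 0 of Foxa2 and, of the epithelial genes, 10.8 of Cdh1, but also 122 of Cftr, 2466 of Krt8 and 945 of Sox9, the highest Sox9 of the 10 lines. A1620 stood apart in its trend with transcript length (a log2 slope of -0.65 per doubling, against -0.02 to 0.04 in the remaining 4 of its genotype and 0.10 to 0.15 in KPCAf/f). Every KPC line expressed the Y-linked Eif2s3y (767 to 1337), which had at most 0.881 in KPCAf/f lines, so the genotype and the sex chromosomes cannot be told apart. In the 12-gene fibroblast and mesenchymal list the summed level was 68.0 to 189 in KPC lines and 17860 to 97010 in KPCAf/f lines, and Lum and Fap had 0 reads in every KPC line.

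Sdc1 and Sdc4 made up most of the syndecan mRNA in every line. Sdc2 rose in KPCAf/f lines to 22.2 times its KPC mean, whereas Sdc1, Sdc3 and Sdc4 did not pass the test. Sdc2 was the only member called over all genes (limma on log2(normalized count + 1), Benjamini-Hochberg adjusted p under 0.05), as 1 of the 6 members with enough reads to be tested. The same test called 1.36% of the 13089 genes tested higher in KPCAf/f and 0.39% lower, and 0 members were lower. At an unadjusted limma p under 0.05, Sdc2, Sdc3 and Gpc1 were higher, and 14.6% of all genes tested had such a p in either direction.

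Sdc2, which binds growth factors and matrix and is known from fibroblasts and other mesenchymal cells, had 87.1 normalized counts in A1081, 51.7 in A1620, 15.7 in A1625, 229 in A2031 and 2.06 in A2032 among the KPC lines. In the KPCAf/f lines it had 1647 in A1693, 220 in A1809, 2034 in A1925, 3667 in A2441 and 999 in A3992. Only A1809, the lowest KPCAf/f line, and A2031, the highest KPC line, overlapped, and they did so by a few counts. The means were 77.1 ± 91.2 in KPC and 1713 ± 1291 in KPCAf/f (SD, n = 5 each). The KPC mean was 39.1 ± 38.2 without A2031 (n = 4), which makes the ratio of means 43.8. In the other direction, A2441 at 3667 raises the KPCAf/f mean, and leaving it out lowers the ratio. The log2 difference was 5.12 (SE 1.10, 95% interval 2.69 to 7.54, limma adjusted p = 0.0438). It was 5.18 with a pseudocount of 0.5, and 4.23 without A2032, which had 2 reads. A two-sided exact permutation test of this gene alone over every split of the lines into 5 and 5 gave p = 0.0159, where the smallest possible is 0.00794. Sdc2 lies on chromosome 15 at 32920723 to 33034935 on the plus strand (GRCm38, GENCODE M21), with 1 annotated transcript of 3527 bases and no exon shared with another gene.

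The size of the Sdc2 difference was steadier than its call. Across 22 other settings and left-out lines the log2 difference ran from 4.23 (without A2032) to 5.79 (without A2031). It was 4.72 without A2441, the line with the most Sdc2. The adjusted p ran from 2.74e-05 to 0.131 and passed in 10 of the 22. The call was kept without A2031 or A1809 and lost without any 1 of the other 8 lines (adjusted p up to 0.110). Without A1693 the log2 difference was 5.01 (adjusted p = 0.0852), and without both A1693 and A1620 it was 5.15 (adjusted p = 0.131). edgeR gave an adjusted p of 0.0691, limma-voom 0.104 and DESeq2 2.74e-05. Those tools called 1.11%, 0.581% and 3.98% of the 13089 genes higher, respectively.

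Marker lists of other cell types were read beside Sdc2. The summed fibroblast and mesenchymal level was higher in all 5 KPCAf/f lines than in any KPC line. Of its 12 genes, 11 reached 10 normalized counts in at least 1 KPCAf/f line and 4 did in at least 1 KPC line. The 7 that were tested were called higher, but Col1a2, Col3a1 and Pdgfrb passed the filter through KPCAf/f lines alone and so had to differ, and that count supports nothing. Within this list, Fap was at 4.50 normalized counts or less in every line, and Lum was at 7.05 or less outside A1693, where it had 126. Dcn fell to 2.46 in A1809, Thy1 to 2.53 in A1925 and Postn to 6.75 in A2441. Col1a1, Col1a2, Col3a1, Pdgfra, Pdgfrb, Acta2 and Prrx1 were each at 96.1 or more in every KPCAf/f line. The epithelial list of 12 genes had summed levels of 170700 to 367900 in KPC and 6188 (A1693) to 135100 (A3992) in KPCAf/f. All 12 were tested and 0 were called by limma, with 5 lower at an unadjusted p under 0.05 and 2 of the 12 with a positive difference. A1809, with the least Sdc2 among KPCAf/f lines, had the highest mean epithelial level of all lines on the log2 scale, at 12.60, and its fibroblast sum of 20440 was second lowest among the KPCAf/f lines. In bulk RNA, fewer cells of a type and less RNA per cell cannot be told apart, and the part of these markers in the Sdc2 difference was not tested. The 7 endothelial genes summed to 13.4 to 441 in KPC and 12.6 to 677 in KPCAf/f, mostly from Cdh5 in A1081 (415) and A2441 (644), while Pecam1 was at 6.75 or less in every line. The 8 leukocyte and macrophage genes summed to 46.9 to 119 in KPC and 105 to 294 in KPCAf/f, with Cd68 at 31.3 to 293 and Csf1r at up to 185, while Ptprc was at 11.3 or less. No gene of either list was called by limma, among the 1 endothelial and 2 leukocyte genes tested, and 0 had an unadjusted p under 0.05.

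**Figure D1:**
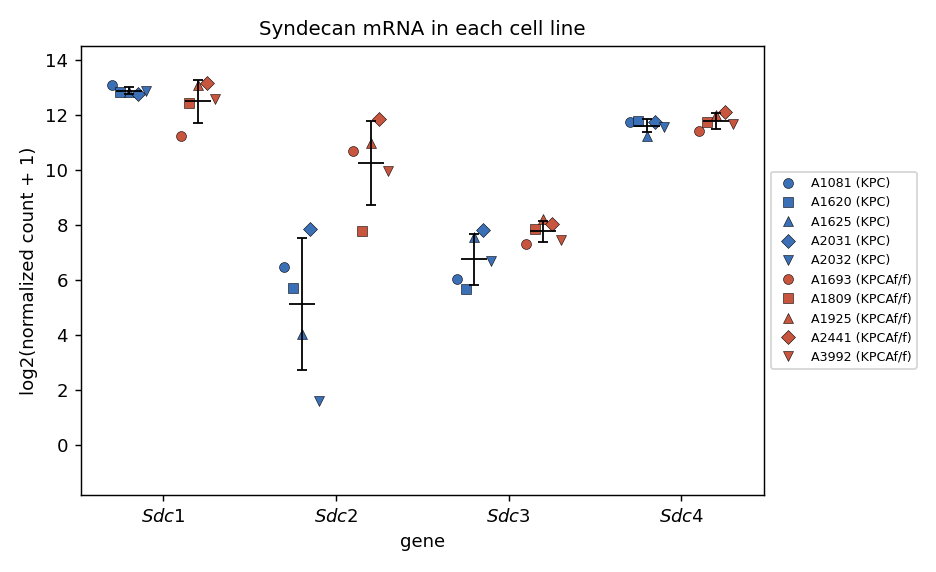
Expression of the 4 syndecans in each line, as log2(normalized count + 1) on the vertical axis, with genes on the horizontal axis; blue symbols are KPC lines, red symbols KPCAf/f lines, each symbol shape 1 line, and black bars the mean and SD over 5 lines. Sdc2 spreads from 2.06 normalized counts in A2032 to 3667 in A2441, with the genotypes meeting only at A2031 and A1809, while Sdc1 and Sdc4 stay within a narrow band apart from Sdc1 in A1693.

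Sdc1, the syndecan typical of epithelium, had 8634, 7297, 7231, 6964 and 7519 normalized counts in A1081, A1620, A1625, A2031 and A2032. The KPCAf/f lines A1693, A1809, A1925, A2441 and A3992 had 2401, 5508, 8708, 9061 and 6060. The KPC lines were tightly grouped, and KPCAf/f lines lay on both sides of them, so the groups overlapped. The means were 7529 ± 649 in KPC and 6348 ± 2706 in KPCAf/f (n = 5 each), with a log2 difference of -0.38 (95% interval -1.10 to 0.33, limma adjusted p = 0.597) that was -0.07 without A1693. A1925 and A2441 had more Sdc1 than any KPC line, although their mean log2 epithelial levels were 8.47 and 7.64, against 9.47 to 11.07 in KPC lines. In GRCm38 it spans 8771323 to 8793715 of chromosome 12, plus strand.

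Sdc4, a widely expressed syndecan found at focal adhesions, lay between 2413 and 4412 normalized counts in all 10 lines. It had 3413, 3468, 2413, 3445 and 3010 in the KPC lines, in the order above. The KPCAf/f lines had 2700, 3446, 4060, 4412 and 3233, so the groups overlapped. A1925 and A2441 were above every KPC line, and A1625 was below every KPCAf/f line. The log2 difference of 0.17 had a 95% interval of -0.23 to 0.58 (limma adjusted p = 0.679). It spans 164424247 to 164443887 of chromosome 2 on the minus strand (GRCm38).

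Sdc3, known mainly from the nervous system, was read at low levels in every line. It had 65.3, 50.3, 187, 227 and 102 normalized counts in the KPC lines and 156, 231, 298, 259 and 174 in the KPCAf/f lines. A1081, A1620 and A2032 were below every KPCAf/f line, but A1625 and A2031 were within their range. The means of 126 ± 77.2 and 223 ± 58.7 (n = 5 each) gave a log2 difference of 1.01 (95% interval 0.04 to 1.98, limma adjusted p = 0.324), and 0.74 without A1620. Sdc3 lies on chromosome 4 at 130792537 to 130826319 on the plus strand (GRCm38), and 2 annotated genes on the opposite strand that share exon bases with it, Gm12970 and Gm26716, had 0 reads.

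Per kilobase of exon, Sdc2 took a larger share of syndecan mRNA in KPCAf/f lines. Its share of the 4 genes' sum was 0.0184% to 1.98% in KPC (median 0.444%) and 2.15% (A1809) to 21.4% (A1693) in KPCAf/f (median 12.8%). Sdc1 made up 55.7% to 65.9% in KPC and 28.9% (A1693) to 50.7% in KPCAf/f (from 45.8% without A1693), and these ranges did not overlap either. The share of Sdc4 did overlap, at 32.9% to 41.3% and 33.4% to 48.6%. Within a line, the ratio of Sdc1 to Sdc2 normalized counts was 99.1, 141, 462, 30.4 and 3646 in the KPC lines and 1.46, 25.0, 4.28, 2.47 and 6.07 in the KPCAf/f lines, so that every KPCAf/f line was lower than every KPC line. Shares within a family sum to a fixed total, and the ratio was formed from chosen members, so both are given as descriptions with no test. The share of Sdc1 in KPCAf/f can be lower with no lower Sdc1 level, as in A1925 and A2441.

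**Figure D2:**
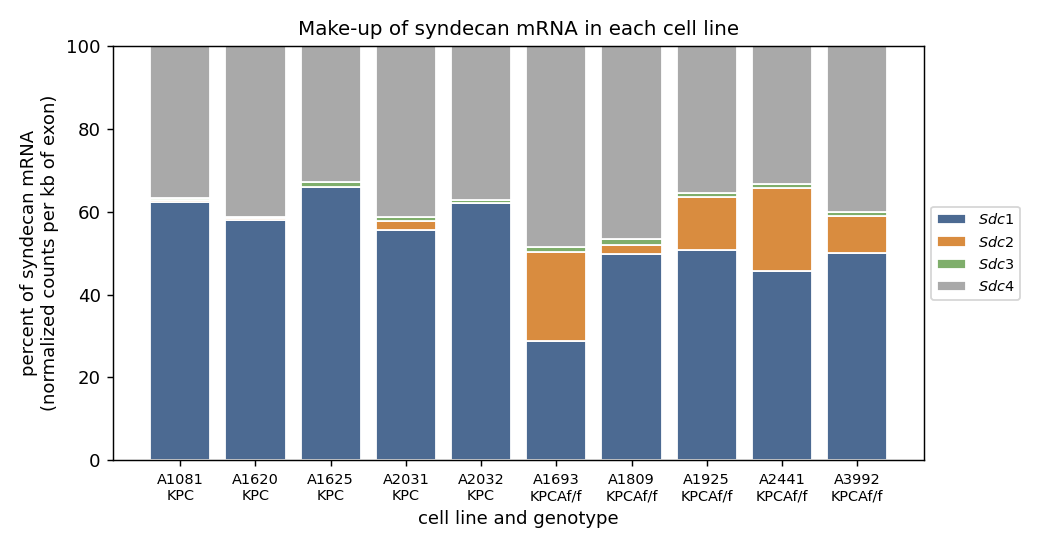
Share of each syndecan in the sum of the 4, in percent of normalized counts per kilobase of exon (vertical axis), for each line with its genotype (horizontal axis). The orange Sdc2 segment is at most 1.98% in KPC lines and reaches 21.4% in A1693, and it is small (2.15%) in the KPCAf/f line A1809.

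Glypican mRNA was almost all Gpc1 in most lines, and no glypican was called over all genes. Of the 6 glypicans, only Gpc1 and Gpc6 reached 10 normalized counts in at least 5 lines and entered the limma fit. Gpc2, Gpc3, Gpc4 and Gpc5 did not, and of these Gpc4 had genotypes that did not overlap. A gene confined to KPCAf/f lines passes that filter only if all 5 lines reach it, and 1 of them, A2441, kept Gpc4 out.

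Gpc1, a co-receptor for FGF that is known for its abundance in pancreatic cancer, had 1416, 1719, 2009, 1491 and 632 normalized counts in A1081, A1620, A1625, A2031 and A2032. In A1693, A1809, A1925, A2441 and A3992 it had 4343, 2433, 5622, 6455 and 1206. Of the KPCAf/f lines, 4 were above every KPC line and A3992 was below 4 of them. The means were 1453 ± 514 in KPC and 4012 ± 2181 in KPCAf/f (n = 5 each), a ratio of 2.76. The log2 difference of 1.33 (SE 0.47, 95% interval 0.30 to 2.36) did not pass over all genes (limma adjusted p = 0.220). Without A3992 it was 1.70 (adjusted p = 0.0608). Among the other settings only DESeq2, which called 3.98% of all genes tested higher, called it (log2 difference 1.46, adjusted p = 0.0337). In GRCm38 it spans 92831645 to 92860779 of chromosome 1, plus strand, and Ankmy1, which shares exon bases on the opposite strand, had at most 6.85 normalized counts.

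Gpc4, also called K-glypican and known to modulate Wnt and FGF signals, was near 0 in KPC lines and present in most KPCAf/f lines. It had 0, 1.32, 0.978, 2.24 and 4.12 normalized counts in the KPC lines, 8 reads in all. It had 659 in A1693, 48.3 in A1809, 41.3 in A1925, 4.50 in A2441 and 72.2 in A3992, or 926 reads. The groups did not overlap, but their nearest lines, A2441 and A2032, had the same count of 4 reads. Among the 28712 genes with at least 1 read, 1.99% had KPCAf/f lines all above the KPC lines, and 2.84% of the tested ones did, among them 0 of the 6 tested members. The mean was 1.73 ± 1.56 in KPC and 165 ± 277 in KPCAf/f (n = 5 each), a ratio of 95.3, and 41.6 ± 28.1 (n = 4) and 24.0 without A1693. The log2 difference was 4.56, and the two-sided exact permutation p, unadjusted, was 0.00794, the smallest that 5 lines against 5 can give. With no filter the limma adjusted p was 0.0648, so that it was not called.

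Gpc4 lies on the X chromosome at 52053021 to 52165252 on the minus strand, and Gpc3 lies 107.2 kb away at 52272426 to 52613950 on the same strand (GRCm38). Both are X-linked, and lines differed in their X chromosomes. Xist, the RNA of the inactive X, was at 5278 to 18451 in A1809, A1925, A2441 and A3992, at 3.6 in A1693 and at 1.96 to 6.63 in KPC lines. The highest Gpc4 was in A1693, without Xist, and the lowest among the KPCAf/f lines was in A2441, which had the most Xist. A1693 also had the highest fibroblast sum (97010) and the lowest epithelial sum (6188). The part of either in the Gpc4 values was not tested. Gpc3, known for its role in body growth and in liver cancer, had 2 reads in A3992 and 0 in the other 9 lines, so the neighbours did not share their pattern. A count of 0 allows up to 3 reads, or 2.46 to 3.97 normalized counts depending on the line, and covers counting error only.

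Gpc6 varied widely within each genotype. It had 117, 64.9, 2.94, 0 and 84.5 normalized counts in the KPC lines and 733, 27.0, 115, 6.75 and 190 in the KPCAf/f lines. Both genotypes held lines with few or no reads (A1625, A2031 and A2441) and lines above 100, so the groups overlapped broadly. The log2 difference of 2.08 had a 95% interval of -1.32 to 5.48 (limma adjusted p = 0.550). The KPCAf/f mean was 214 ± 299 (n = 5), and 84.7 ± 84.6 (n = 4) without A1693, against 54.0 ± 51.5 (n = 5) in KPC. Gpc6 spans 116925315 to 117976544 of chromosome 14 on the plus strand (GRCm38). Its chromosomal neighbour Gpc5, 400.1 kb upstream, had 44 reads (38.8 normalized counts) in A3992 and 0 in the other 9 lines. A3992 had the second highest Gpc6. Gpc2, a glypican of the developing nervous system, had 5.68, 0, 11.7, 6.71 and 0 in KPC lines and 22.5, 1.64, 35.4, 5.62 and 31.7 in KPCAf/f lines, at most 42 reads. Its groups overlapped (log2 difference 1.91, two-sided exact permutation p = 0.135).

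**Figure D3:**
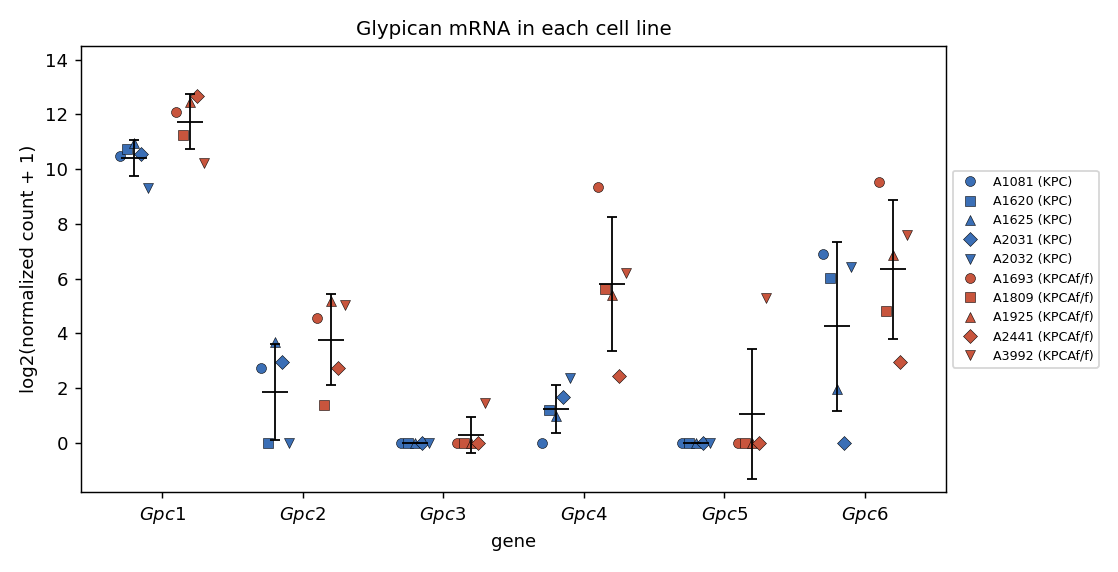
Expression of the 6 glypicans in each line, as log2(normalized count + 1) on the vertical axis, with genes on the horizontal axis; blue symbols are KPC lines, red symbols KPCAf/f lines, each symbol shape 1 line, and black bars the mean and SD over 5 lines. Gpc1 is high in all 10 lines, Gpc4 separates the genotypes down to 4.12 against 4.50 normalized counts, and Gpc3 and Gpc5 have reads in A3992 only.

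RefSeq promoter windows (GRCm38.p6) were matched for 7 members and not for Sdc2, Gpc1 or Gpc6. The 250 bases before the start are printed for Sdc3, which had reads in every line, and for Gpc3 and Gpc5, which had reads in 1 line, to set 2 windows of genes with almost no reads beside that of a gene that was read. Capitals mark GGGCGG, the core of the GC box bound by SP-family factors, on either strand (CCGCCC on the other), overlapping matches allowed. The windows are chr4:130792287-130792536 on the plus strand, chrX:52613975-52614224 on the minus strand and chr14:115091965-115092214 on the plus strand.
Sdc3: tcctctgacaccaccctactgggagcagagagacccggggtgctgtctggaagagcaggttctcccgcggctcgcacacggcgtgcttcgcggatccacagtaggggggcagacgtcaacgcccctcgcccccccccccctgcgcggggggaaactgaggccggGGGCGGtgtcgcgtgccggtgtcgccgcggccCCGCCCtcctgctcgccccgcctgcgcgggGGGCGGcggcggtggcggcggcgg
Gpc3: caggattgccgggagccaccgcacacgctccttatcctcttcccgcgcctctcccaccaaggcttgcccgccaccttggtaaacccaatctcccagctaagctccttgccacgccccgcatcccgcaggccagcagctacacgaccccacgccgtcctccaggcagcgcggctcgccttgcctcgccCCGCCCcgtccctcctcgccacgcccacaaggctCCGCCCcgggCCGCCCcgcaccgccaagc
Gpc5: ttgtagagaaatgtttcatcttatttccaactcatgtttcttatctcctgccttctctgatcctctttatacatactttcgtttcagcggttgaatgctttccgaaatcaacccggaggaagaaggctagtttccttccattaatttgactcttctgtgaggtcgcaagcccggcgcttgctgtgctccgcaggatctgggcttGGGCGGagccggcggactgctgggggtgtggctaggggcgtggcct

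The Sdc3 window held 32 CpG dinucleotides and that of Gpc3 held 25, against 12 for Gpc5 and a median of 6 over 32851 windows of the same length. Gpc3 thus had a CpG-rich window with 3 GC box cores, as Sdc3 had, while it gave almost no reads. All 7 windows held at least 1 GC box core (3 in Sdc1, Sdc3, Gpc2 and Gpc3, 4 in Sdc4, 1 in Gpc4 and Gpc5), which 32.7% of all windows did. The AP-1 motif TGANTCA was in none of the 7 and in 6.7% of all, and CAGGTG, an E-box core, in none of the 7 and in 17.2% of all. A TATAAA was in the Gpc5 window alone among the 7, and in 12.4% of all. In Gpc5 it lay on the opposite strand and reads TTTATA in the printed letters. All of these motifs were searched on either strand. These letters describe the windows and say nothing of binding.

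Levels were set side by side across genes only per kilobase of exon, as a mean of normalized counts per kilobase over 5 lines. In KPC the order was Sdc1 (1977), Sdc4 (1237), Gpc1 (282), Sdc2 (21.9), Sdc3 (21.1), Gpc6 (8.4), Gpc2 (1.13) and Gpc4 (0.654), with Gpc3 and Gpc5 at 0 reads. In each of the 5 KPC lines Sdc1 was above Sdc4, Sdc4 above Gpc1 and Gpc1 above Sdc2. Sdc2 was above Sdc3, Sdc3 above Gpc6 and Gpc6 above Gpc2 in 3 of 5 lines each, so these neighbours did not differ beyond their spread. In KPCAf/f the order began with Sdc1 (1666), Sdc4 (1402), Gpc1 (778) and Sdc2 (486), and Sdc4 exceeded Gpc1 in 5 of 5 lines. Sdc1 exceeded Sdc4, and Gpc1 exceeded Sdc2, in 4 of 5 lines. Gpc4 (62.3, with 249 in A1693), Sdc3 (37.3) and Gpc6 (33.4) followed, and Gpc4 exceeded Sdc3 in 1 of 5 lines.

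**Figure D4:**
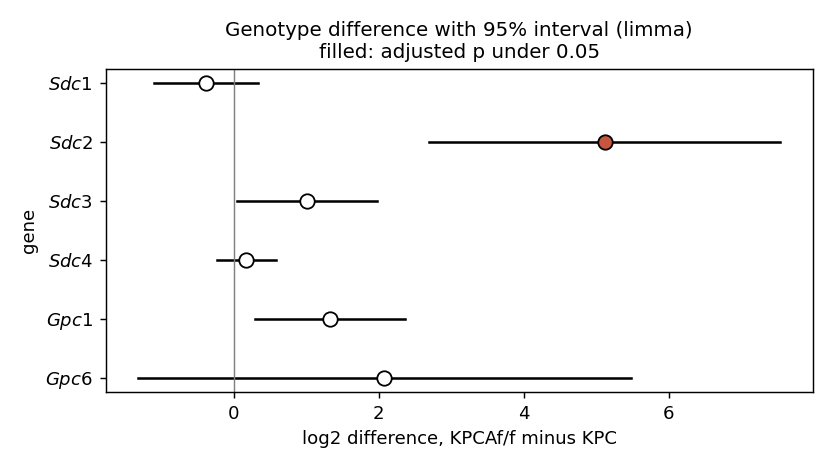
Log2 difference of each tested member (horizontal axis, KPCAf/f minus KPC, with its 95% interval as a line) by gene (vertical axis), from limma over 13089 genes; the filled point passed an adjusted p under 0.05. Sdc2 stands at 5.12, the intervals of Sdc1, Sdc4 and Gpc6 include 0, and those of Sdc3 (from 0.04) and Gpc1 (from 0.30) begin just above it without passing the adjustment.

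Genes whose pattern over the 10 lines was most like that of a member were ranked by Pearson's r of log2(normalized count + 1) among 11789 other tested genes. For Sdc2 these were Vsir (r = 0.936), Txndc16 (0.933) and Zfp937 (0.931). For Sdc1 they were Fam20c (0.956), Kbtbd11 (0.944) and Parm1 (0.943), and for Gpc1 Cnnm2 (0.955), Samhd1 (0.954) and Ccl2 (0.930). Sdc3 was most like Ccdc3 (0.963), Adamts9 (0.960) and Wnt5a (0.948), Sdc4 like Lrp11 (0.858), Sirt2 (0.850) and Nfkb2 (0.848), and Gpc6 like Clybl (0.941), Paip2 (0.893) and Ube2b (0.881). These are the top of many correlations over lines that differ in genotype, and are given as a description with no test. A single line can weigh heavily in such an r. For Sdc1 that line may be A1693, which had 2401 normalized counts against 5508 or more in every other line.

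Genes that build, modify and release heparan sulfate were not called by limma. Of 57 genes in 5 lists, 44 were tested, and limma, edgeR and limma-voom called 0 of them. DESeq2 called 2, Tgfbr3 and Adam17, both higher, and it called 3.98% of all genes tested higher. At an unadjusted limma p under 0.05 there were 5 higher and 3 lower, or 18.2% of the 44, beside 14.6% of all genes tested. The median log2 difference of the 44 was 0.19, and that of all genes tested -0.01. A1620, the KPC line with the unusual length trend, weighs on many of these genes. It was the lowest KPC line for Ndst1 (374), Adam10 (764), Extl3 (779) and Adam17 (893). For B3gat3 (1745), Mmp14 (4671) and Gipc1 (2689) it was the highest. Its part in the median was not tested.

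The 12 genes of the chain's linker and polymerisation had a median log2 difference of 0.17, and 0 had an unadjusted p under 0.05. Ext1, a subunit of the heparan sulfate polymerase, averaged 1961 ± 350 normalized counts in the 5 KPC lines and 2603 ± 1278 in the 5 KPCAf/f lines (limma adjusted p = 0.655). The smallest p belonged to B3galt6, a linker galactosyltransferase, at 108 ± 39.8 and 143 ± 34.1 (adjusted p = 0.539), and Extl3, which starts the chain, at 1317 ± 483 and 1600 ± 375 (adjusted p = 0.589). Of 9 tested sulfation and epimerisation genes of 16 listed, 1 higher and 1 lower had an unadjusted p under 0.05. Ndst2, an N-deacetylase and N-sulfotransferase, averaged 390 ± 81.9 in KPC lines and 653 ± 168 in KPCAf/f lines (adjusted p = 0.189). Hs3st1, the 3-O-sulfotransferase of anticoagulant heparan sulfate, was at 1122 ± 359 and 480 ± 451 (adjusted p = 0.308), and 292 ± 183 without A1809 (n = 4).

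Among 7 tested genes of 12 that edit the chain or release the core protein, Adam17, a sheddase of syndecans, averaged 1241 ± 272 in KPC lines and 2001 ± 387 in KPCAf/f lines (limma adjusted p = 0.147). Sulf1, an extracellular 6-O-endosulfatase, was at 68.7 ± 99.6 and 812 ± 1501 (adjusted p = 0.313). Without A3992, at 3492, the KPCAf/f mean of Sulf1 was 143 ± 118 (n = 4), and without A2032 the KPC mean was 25.3 ± 26.1 (n = 4). Of the 10 cytoplasmic partners, Sdcbp2, a paralog of the syndecan-binding adaptor syntenin, averaged 2147 ± 630 in KPC lines and 707 ± 836 in KPCAf/f lines (adjusted p = 0.167; 392 ± 518 without A3992, n = 4). Syntenin itself, Sdcbp, was at 5989 ± 2272 and 4759 ± 977 (adjusted p = 0.71), and Pdcd6ip, which binds it, at 4454 ± 1293 and 5569 ± 864 (adjusted p = 0.497).

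Of 6 tested heparan sulfate proteoglycans outside both families, Tgfbr3 (betaglycan, a TGF-beta co-receptor) had 18.0, 17.2, 28.4, 17.9 and 2.06 normalized counts in the KPC lines. It had 2257, 4.09, 863, 762 and 189 in the KPCAf/f lines A1693, A1809, A1925, A2441 and A3992. A1809 alone lay within the KPC range, as it did for Sdc2 (limma log2 difference 4.24, adjusted p = 0.196), and without A1809 limma called Tgfbr3. Agrn, the basement membrane proteoglycan agrin, averaged 6427 ± 2936 in KPC lines and 2597 ± 3681 in KPCAf/f lines (adjusted p = 0.162). A1809 again was the exception, at 9181, and the other KPCAf/f lines averaged 951 ± 54.4 (n = 4), below every KPC line. Limma called Agrn without A1809 and with lines weighted by their quality, so Agrn and Tgfbr3 were each called in 2 of 22 other settings. A1809 was singled out from these same values, so the calls without it are no support. Without it, 227 of all genes tested were called higher and 91 lower, against 178 and 51 with all lines. With weighted lines these counts were 403 and 183.

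**Figure D5:**
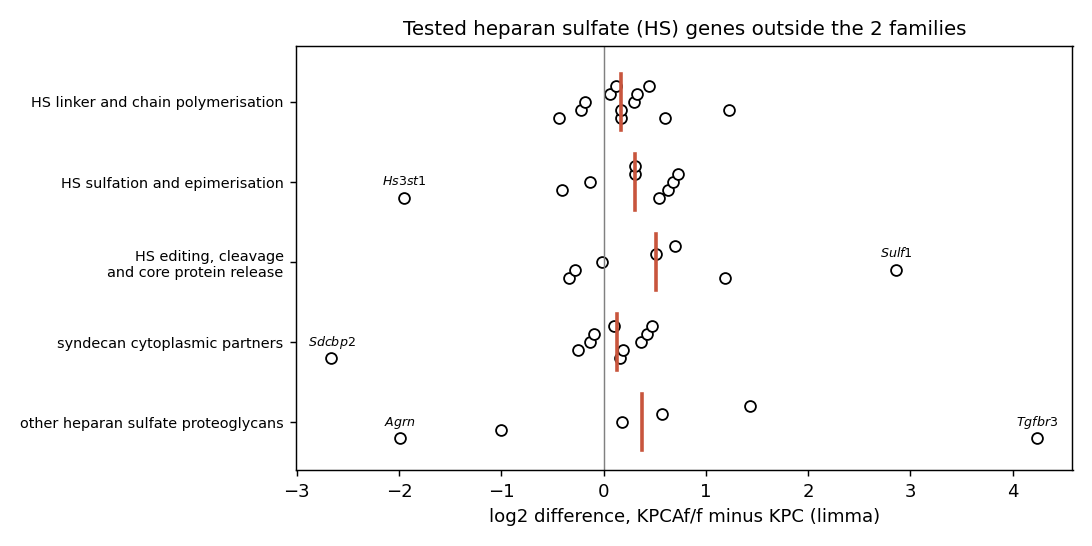
Log2 difference of each tested heparan sulfate gene outside the 2 families (horizontal axis, KPCAf/f minus KPC) in 5 lists (vertical axis, points spread for legibility, red bars the list medians); open points mark genes with an adjusted p of 0.05 or more. Medians lie between 0.13 and 0.51, and Tgfbr3 at 4.24, Sulf1 at 2.86, Agrn at -1.99, Hs3st1 at -1.95 and Sdcbp2 at -2.66 lie farthest from them.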

How the data were processed

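RNA libraries from 10 mouse pancreatic cancer cell lines, 5 per genotype, were prepared with a stranded mRNA kit, per the labels' protocols. The authors deposited 1 table of normalized counts (a signal per gene: read counts divided by DESeq2 size factors) for 49568 genes. The submitters' processing notes name bcl2fastq 1.8.4, Trimmomatic 0.36, STAR 2.5.2b, featureCounts of Subread 1.5.0p3, DESeq2 1.14.1 and R 3.3.2, with the builds GRCm38.p5 and mm9. How each build was used, the annotation and whether counting was by strand are not stated in the notes or labels, and reads of overlapping genes on opposite strands may not be separated.

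Whole reads were recovered from the deposited signal within 0.001 reads for 100.0% of values, and size factors recomputed from them matched, so the scale assumes that most genes do not differ between lines. No libraries were copies of each other. Genes with at least 10 normalized counts in at least 5 lines (13089) were tested with limma 3.58.1 (R 4.3.3) on log2(normalized count + 1), with Benjamini-Hochberg adjustment over all of them. Single values, and the members outside that filter, were tested with two-sided exact permutation tests over all splits of the lines into 5 and 5. The recovered reads were also tested with edgeR 4.0.16, DESeq2 1.42.0 and limma-voom. Other alternatives were the pseudocount, the filter, the scaling, line weights, a length correction and left-out lines. The code was tested on simulated data. Coordinates and exon lengths are from GENCODE M21 (GRCm38), in which 47240 symbols (95.3%) and all 10 members matched. Promoters are from RefSeq (GRCm38.p6).

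Members and gene lists were chosen with earlier results of these data known. All members are named, with the genes called in each related list or else the 2 with the smallest p, and the 3 genes most like each tested member. Ext1, Sdcbp, Arid1a, Pdx1, Cdh1 and the markers named with their levels were chosen outside that rule. The ratio of Sdc1 to Sdc2 is a score over members, so its planned permutation test is not printed. Limits from a count of 0 (3 reads) cover counting error only.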

Additional observations from a re-analysis of the deposited data

Results flagged for a closer look

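In the KPCAf/f lines, 2 glypicans were set apart by a single line. Gpc5 had 38.8 normalized counts (44 reads) in A3992 and 0 in the other KPCAf/f lines, so the gap from A3992 to its nearest neighbour was the whole range of the group on the log2 scale (gap divided by range, 1). Gpc3 had 1.76 normalized counts in A3992, from 2 reads, and 0 in the other KPCAf/f lines (gap divided by range, 1), and 2 reads are under the limit that a count of 0 allows. Of 22 groups of 5 lines checked (the 10 members and the Sdc1 to Sdc2 ratio in each genotype), 2 had no range, and chance sets apart about 5%. That share is for values without ties. Where all other lines of a group are at 0, the gap divided by range is 1 for any gene. The share therefore cannot be set against these 2 glypicans, whose flags say only that their reads came from 1 line.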

How the results depend on the processing

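Under 22 alternatives, Sdc2 stayed higher in KPCAf/f in all 22 and was called in 10. The number of members called higher (1, Sdc2) was 0 with a filter on a mean of 100 normalized counts (adjusted p = 0.0508), 0 with edgeR, 0 with limma-voom and 0 without both A1620 and A1693. With DESeq2, which called 3.98% of all genes tested higher, the number was 2 (Sdc2 and Gpc1). The number was 0 to 1 when each line was left out in turn, with 0 without any 1 line other than A2031 and A1809, and the fewer lines lower the power of those fits. In all 22, 0 members were called lower. The log2 differences of Sdc1, Sdc3, Sdc4, Gpc1 and Gpc6 kept their sign, and of these only Gpc1 was called, by DESeq2. The difference in the log2 ratio of Sdc1 to Sdc2 (-5.50) ran from -6.20 to -4.62 over 13 alternatives, which were other pseudocounts and left-out lines only. With the longest transcript as the length, 8 of 10 members kept their rank in each genotype. Gpc4 was not called with no filter (adjusted p = 0.0648). No paired analysis was possible, because each line has a single genotype and the labels link no KPC line to a KPCAf/f line. Depth limits Gpc2, Gpc3, Gpc4 and Gpc5, which had few or no reads in most lines.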

Other observations

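Some genes that act on heparan sulfate proteoglycans were high in a few lines only, and these were chosen after their values were seen. Notum, an extracellular carboxylesterase known to inactivate Wnt proteins and first described as a releaser of glypicans, had 597 normalized counts in A1925, 715 in A2441 and 37.9 in A3992, and 0.818 to 10.6 in the other 7 lines. Sulf2, the second extracellular 6-O-endosulfatase, had 1509 in the KPC line A1081 and 2299 in the KPCAf/f line A2441, 623 in A1925 and 166 in A3992, and 21.6 to 113 in the other 6 lines. Its high lines were thus found in both genotypes. Sulf1 was highest in A3992 (3492), the line that alone had Gpc5 reads.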
